A study of Mus musculus with 8 samples.

Results

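The nuclear genes for subunits of the mitochondrial respiratory chain and ATP synthase were followed in liver arrays of mice with and without ATF4. Members were all genes whose symbol begins with Nduf, Sdha to Sdhd, Uqcr, Cox followed by a digit, or Atp5, taken from probe sets that name 1 gene only. This gave 76 of the 8251 genes covered by the array, measured by 104 of 12422 probe sets. Of these genes, 69 encode subunits, with 29 in complex I, 4 in complex II, 7 in complex III, 15 in complex IV and 14 in complex V. The other 7 (Ndufaf1, Ndufaf4, Cox14, Cox16, Cox17, Cox18 and Cox20) share such a symbol but encode assembly factors, and were counted apart. A further 11 probe sets that name a member together with another gene were left out. All members are accounted for, and no filter on low values was applied. Counts of genes below, and genes named in them, rest on 1 probe set a gene. Other probe sets of the same gene can differ.

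The respiratory chain passes electrons from NADH, through complex I, and from succinate, through complex II, to complex III, cytochrome c and complex IV, which reduces oxygen. Complexes I, III and IV pump protons out of the mitochondrial matrix, and complex V (ATP synthase) uses their return to make ATP. The liver depends on this system for glucose production, urea synthesis and lipid handling. Members are encoded in the nucleus and imported, whereas some other subunits are encoded by mitochondrial DNA and have other symbols.

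Every mouse carried the low expressing Ttr::Fv2E-PERK transgene, in which the transthyretin promoter, active in hepatocytes, drives the kinase PERK fused to a domain that the compound AP20187 joins in pairs. AP20187 thereby starts the integrated stress response in these cells without another stress, and ATF4 is a transcription factor whose translation that response raises. The mice were transgene-positive siblings, Atf4+/+ or Atf4-/-, of a mixed FvB/n and Swiss Webster background, untreated (mock-injected in the series title) or given AP20187. There were 2 arrays in each of the 4 groups, and the labels used here give no age, dose or time.

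Values were deposited as linear ratios, near 1 at the median over the 8 arrays for most probe sets, so that levels cannot be compared between genes and brightness is unknown. Some arrays need care before the results. Atf4 itself had ratios of 2.36 and 0.30 in the untreated Atf4+/+ arrays, 0.29 and 1.67 in the untreated Atf4-/- arrays, 4.17 and 5.75 in the treated Atf4+/+ arrays and 0.25 and 0.33 in the treated Atf4-/- arrays. Replicate 2 of both untreated groups therefore goes against its labelled genotype, if the probe set lies in the deleted part, which was not examined here. The labels of untreated Atf4-/- replicate 1 also give different genotypes. Treated Atf4+/+ replicate 2 stood apart in the Actb control probe sets, where the 5′ probe set differed from the 3′ one by -0.64 on the log2 scale, against -0.19 in the next lowest array. For Gapdh the same measure was -0.06 there and -0.05 in the next lowest. Genotypes below are the labelled ones.

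The respiratory chain genes were low in 1 array, treated Atf4+/+ replicate 2. Their median ratio there was 0.70, against 0.96 in the other treated Atf4+/+ array. It was 1.12 and 1.01 in untreated Atf4+/+, 1.07 and 1.02 in untreated Atf4-/-, and 0.92 and 1.01 in treated Atf4-/-. All probe sets tested had a median of 0.95 in treated Atf4+/+ replicate 2 and of 0.97 to 0.99 in the other 7 arrays. Of the 76 genes, 50 (65.8%) had their lowest value in that array, against 20.6% of all probe sets tested. Likewise 53 (69.7%) lay below 0.8 there, against 33.1% of all probe sets tested. In liver RNA as a whole, fewer cells of a type and less RNA per cell cannot be told apart.

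Members were not equally low in that array. The median ratio in it was 0.66 for complex I (lowest of the 8 arrays for 23 of 29 genes), 0.475 for complex II (4 of 4), 0.70 for complex III (6 of 7) and 0.685 for complex V (9 of 14). For complex IV it was 0.97, with the lowest value there for 5 of 15 genes. Within complex IV, the 10 genes other than muscle and testis isoforms had a median of 0.81 and the 5 isoforms of 1.18. The 13 genes above 1 there were Ndufa10, Ndufc2, Uqcrc2, Cox18, Cox20, Cox5a, Cox6a2, Cox6b1, Cox6b2, Cox7a1, Cox8a, Atp5g1 and Atp5g2.

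**Figure D1:**
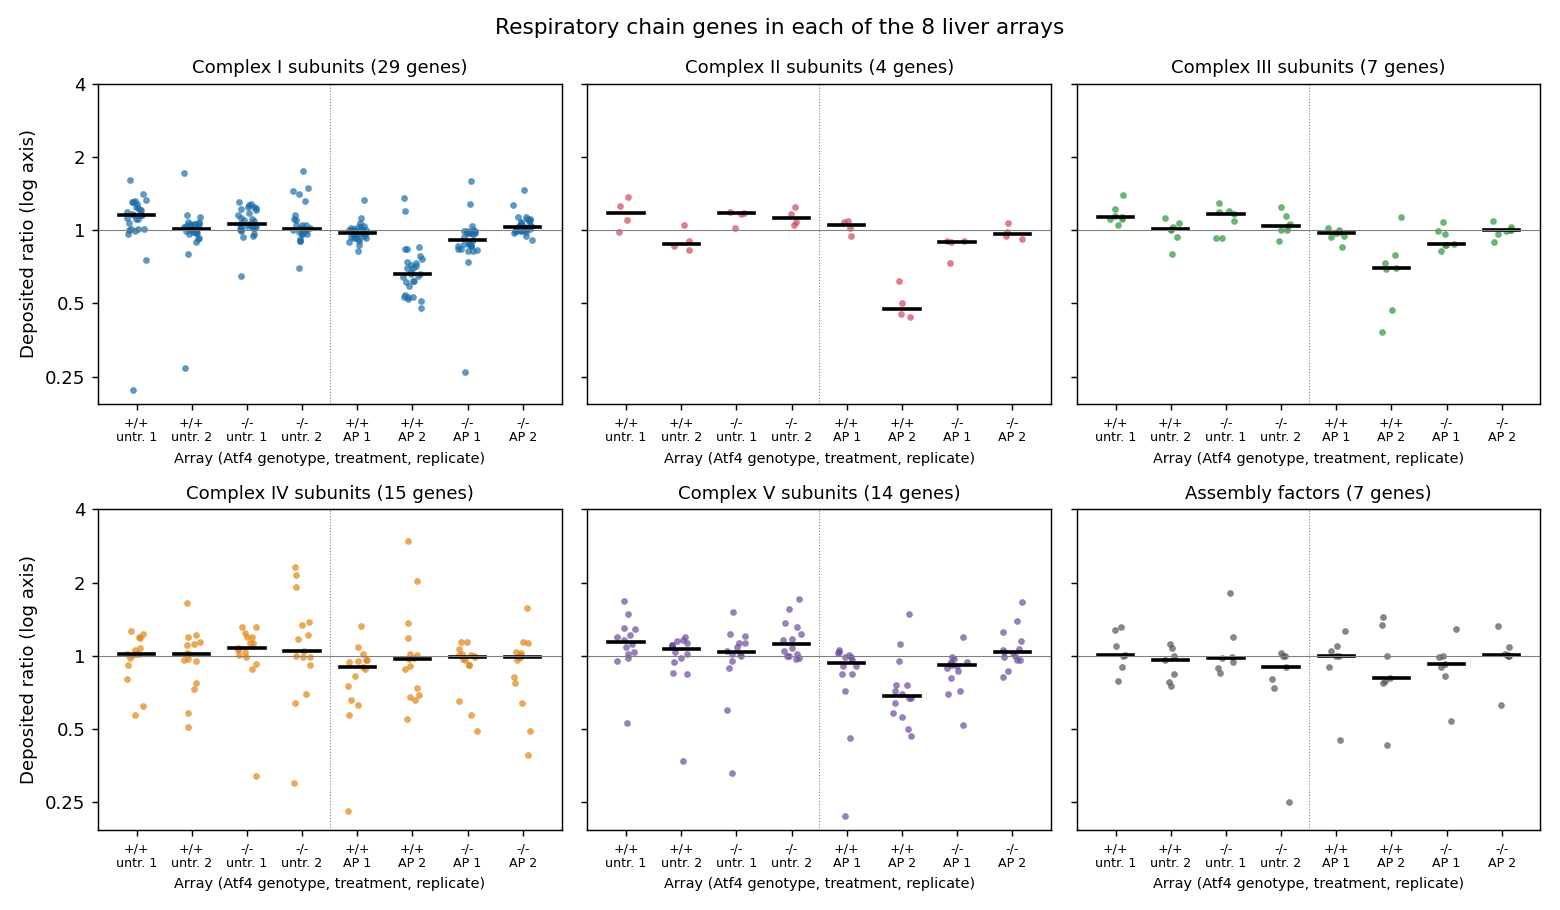
Deposited ratios (log axis) of the respiratory chain genes in each of the 8 arrays, 1 point a gene, with a bar at the median, by complex. In treated Atf4+/+ replicate 2 the median is 0.66 for complex I, 0.475 for complex II, 0.70 for complex III, 0.97 for complex IV and 0.685 for complex V.

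Values of other genes in the same array are given beside that pattern. Of 9 measured hepatocyte markers, 3 were lowest there and the list's median was 0.90, inside the 0.88 to 1.14 of the other arrays. The 3 were Ttr, whose promoter drives the transgene, with a ratio of 0.47, and the apolipoprotein genes Apoa2 and Apob, with 0.36 and 0.29. The other hepatocyte markers lay between 0.87 (Apoa1) and 1.13 (Tat) there, with albumin (Alb) at 0.98. The 8 striated muscle markers ran from 0.43 to 3.08 there with a median of 1.27, against medians of 0.725 to 1.24 elsewhere, and no marker of either list was at 0 in any array. The median of 5 endothelial markers was 0.81 there, against 0.85 to 1.32 in the other 7 arrays. That of 6 T and B cell markers was 0.635, against 0.745 to 1.02. Medians of the remaining marker lists (macrophage, stellate cell, cholangiocyte, erythroid, brown fat and white fat) lay inside the range of the other arrays. Genes that check the treatment were high in that array. Trib3 was at 12.75 there and 3.78 in the other treated Atf4+/+ array, Ddit3 at 5.95 and 3.12, and Asns at 1.97 and 1.41. Each was highest there, whereas Eif2ak3, which encodes PERK, was at 1.37, below the 1.45 of untreated Atf4-/- replicate 1. The part of all these genes in the result, and that of the Actb value, was not tested.

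AP20187 in Atf4+/+ liver, given to switch on the kinase with ATF4 present, gave values below 0 on the log2 scale for 64 of 76 genes. No mouse without the transgene was included, so other effects of the compound cannot be told apart from those of the kinase. No gene passed the adjusted test, and the smallest adjusted p was 0.142 (limma, adjusted over all 12422 probe sets, of which 0.00805% were called). The median change was -0.33, against -0.06 over all probe sets, of which 54.9% were below 0. Unadjusted p was under 0.05 for 2 genes with lower values, Uqcrh and Atp5k, against 4.31% of all probe sets, and for 2 with higher values, Ndufc2 and Cox7a1, against 4.78%. A second probe set of Ndufa3, not the one used, gave -0.78, also with an unadjusted p under 0.05. Both treated arrays lay below both untreated arrays for 32 genes (42.1%), against 21.3% of all probe sets, and above them for 2 genes, against 16.7%. Without treated Atf4+/+ replicate 2 the median was -0.13, against -0.05 over all probe sets. In that fit 56 genes were below 0, as were 6795 of all 12422 probe sets. Without replicate 1 of that group the median was -0.53, against -0.04 over all probe sets. The 32 genes without overlap became 57 without that array, against 38.6% of all probe sets, and 54 without untreated Atf4+/+ replicate 2, against 37.7%.

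AP20187 in Atf4-/- liver gave values below 0 for 56 genes, with a median of -0.14 against -0.02 over all probe sets, 51.9% of which were below 0. No gene passed the adjusted test (0.0% of all probe sets; smallest adjusted p 0.641, limma). Among the probe sets used, only that of Cox8a had a lower value with an unadjusted p under 0.05, against 3.16% of all probe sets. None had a higher value with such a p, against 4.27%. Other probe sets of Ndufaf1 (-2.56), Ndufb6 (-2.65) and Ndufb2 (-1.33) also had lower values with an unadjusted p under 0.05. The treated arrays lay below the untreated ones for 27 genes (35.5%), against 22.3% of all probe sets, and above them for 8, against 20.1%. The result depended on single arrays. Without treated Atf4-/- replicate 1 the median change was -0.05, with 44 genes below 0. Without replicate 2 of that group it was -0.21, with 62 genes below 0. The 27 genes without overlap became 28 (36.8%) without treated replicate 1, against 34.8% of all probe sets, and 53 (69.7%) without treated replicate 2, against 36.2%. They became 37 (48.7%) without untreated Atf4-/- replicate 1, against 37.8%, and 43 (56.6%) without untreated replicate 2, against 39.2%.

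Over both genotypes the median was -0.22, against -0.04 over all probe sets, with 63 genes below 0, against 55.0% of all probe sets, and 13 above. None passed the adjusted test, which 0.0403% of all probe sets passed. All 4 treated arrays lay below all 4 untreated arrays for 8 genes (10.5%), against 3.78% of all probe sets, and above them for none, against 4.19%. The 8 genes come from every complex: Ndufa9, Ndufb5 and Ndufb10 of complex I, Sdhd of complex II, Uqcr11 and Uqcrh of complex III, Cox4i1 of complex IV and Atp5j of complex V. Without treated Atf4+/+ replicate 2 the count was 10, against 5.38% of all probe sets, and the median was -0.15. The count was 15 without replicate 2 of either untreated group, against 6.9% of all probe sets for Atf4+/+ and 5.72% for Atf4-/-. It was 13 without treated Atf4+/+ replicate 1, against 6.06%, and 16 without treated Atf4-/- replicate 2, against 6.22%. It was 8 without treated Atf4-/- replicate 1, against 5.76%. Without replicate 1 of either untreated group it was 10, against 6.38% for Atf4+/+ and 5.75% for Atf4-/-.

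**Figure D2:**
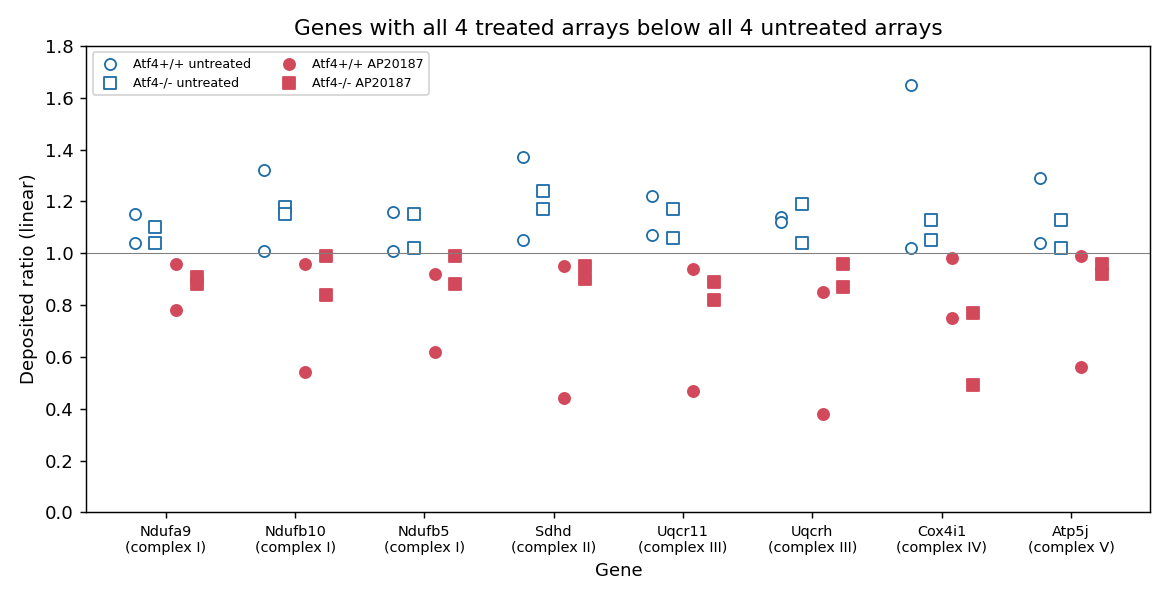
Deposited ratios (linear axis) of the 8 genes whose 4 treated arrays (filled) all lie below their 4 untreated arrays (open), circles Atf4+/+ and squares Atf4-/-. For 7 of the genes, all but Cox4i1, the lowest point is 1 treated Atf4+/+ array, from 0.38 for Uqcrh to 0.78 for Ndufa9.

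Of these 8 genes, the one of each complex with the smallest unadjusted p over both genotypes had its promoter looked up singly. No promoter was found for Cox4i1, and that of Atp5j held no match to the motifs searched. The promoters of the other 3 are shown because they hold a match to a motif of a factor known to act on respiratory chain genes. They are the 250 bases before the start in RefSeq (GRCm38.p6), for Sdhd chr9:50603850-50604099, for Uqcrh chr4:116075071-116075320 and for Ndufb10 chr17:24724424-24724673, all on the minus strand. Capitals mark the matches: in Sdhd first the NRF1 motif and then CTTCCGG, the reverse complement of CCGGAAG (GABPA), in Uqcrh again CTTCCGG, and in Ndufb10 GCCATNTT, the reverse complement of AANATGGC (YY1).
Sdhd: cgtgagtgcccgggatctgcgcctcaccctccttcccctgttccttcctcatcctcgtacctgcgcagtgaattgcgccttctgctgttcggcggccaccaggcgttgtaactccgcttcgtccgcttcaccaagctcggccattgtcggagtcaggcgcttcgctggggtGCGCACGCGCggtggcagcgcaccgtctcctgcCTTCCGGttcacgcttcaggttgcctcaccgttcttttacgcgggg
Uqcrh: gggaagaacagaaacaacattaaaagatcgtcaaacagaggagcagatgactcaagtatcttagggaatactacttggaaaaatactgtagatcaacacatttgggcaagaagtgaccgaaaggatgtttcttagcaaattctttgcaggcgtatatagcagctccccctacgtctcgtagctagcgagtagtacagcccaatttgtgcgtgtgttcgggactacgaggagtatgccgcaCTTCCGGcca
Ndufb10: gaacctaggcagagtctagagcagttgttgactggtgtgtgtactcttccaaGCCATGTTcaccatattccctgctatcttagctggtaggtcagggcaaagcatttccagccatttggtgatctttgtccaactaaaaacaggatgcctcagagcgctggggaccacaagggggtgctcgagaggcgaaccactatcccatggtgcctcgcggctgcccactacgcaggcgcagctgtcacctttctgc

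Promoters were found for 61 of the 76 genes, and both strands of the same 250 bases were searched. The NRF1 motif stood in 9 of them (14.8%), against 4.23% of the 27025 genes in the promoter table and 8.05% of the 6572 of these on the array. CCGGAAG stood in 14 (23.0%), against 7.83% and 13.6%. AANATGGC stood in 6 (9.84%), against 4.49% and 4.88%. AAGGTCA, a site of the estrogen-related receptors, stood in 2 (3.28%), against 4.70% and 3.85%. TGATGNAA, a core of ATF4 sites, stood in none, against 3.91% and 2.63%. The letters overlap no other motif in the printed promoters, and a match is a description of letters only.

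Complex I takes electrons from NADH. Its AP20187 values were below 0 for 27 of 29 genes in Atf4+/+ (median -0.35) and for 23 in Atf4-/- (median -0.14), and in Atf4+/+ the median was -0.13 without treated replicate 2. Among the probe sets used, the lowest values of the complex were those of Ndufa12, -1.09 and -0.70, named after its values were seen, whose ratios ranged from 0.26 to 1.71. Ndufb10, an accessory subunit of the membrane arm, had ratios of 1.32 and 1.01 in untreated Atf4+/+, 1.18 and 1.15 in untreated Atf4-/-, 0.96 and 0.54 in treated Atf4+/+ and 0.84 and 0.99 in treated Atf4-/-. The lowest was treated Atf4+/+ replicate 2, and the closest treated and untreated values were 0.99 and 1.01. Its mean was 1.17 ± 0.127 untreated and 0.833 ± 0.205 treated (SD, n = 4), a log2 change of -0.46 ± 0.21 (SE; adjusted p = 0.478, limma). A second probe set of Ndufb10, with ratios from 0.41 to 2.82, gave -1.28.

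Ndufc2, a small membrane-arm subunit, had the largest log2 change with AP20187 in Atf4+/+ among the probe sets used. A probe set of Ndufb7 that was not used had ratios of 0.29 and 0.43 in untreated and 1.47 and 3.25 in treated Atf4+/+. The ratios of Ndufc2 were 0.22 and 0.27 in untreated Atf4+/+, 1.06 and 0.90 in untreated Atf4-/-, 0.94 and 1.35 in treated Atf4+/+ and 1.59 and 1.27 in treated Atf4-/-. The untreated Atf4+/+ arrays alone were low, and they lay together although their Atf4 ratios differed. The AP20187 change in Atf4+/+ was 1.84 ± 0.26 (SE; adjusted p = 0.142, limma) and in Atf4-/- 0.50 ± 0.26 (adjusted p = 0.715). The difference between these effects was -1.34 ± 0.37 (adjusted p = 0.901). Untreated Atf4-/- against Atf4+/+ differed by 1.65 ± 0.26 (adjusted p = 0.273), and none of these passed the test. A single probe set measured the gene.

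The core subunits of complex I carry its flavin and iron-sulfur centres or hold them in place. Ndufs1, which holds iron-sulfur clusters, changed by a log2 value of -0.41 ± 0.28 in Atf4+/+ and 0.00 ± 0.28 in Atf4-/- (SE). Ndufv1, which binds NADH and the flavin, had -0.39 ± 0.24 and -0.12 ± 0.24. Neither passed the test, and each had its lowest ratio, 0.66 and 0.71, in treated Atf4+/+ replicate 2. Ndufs3 and Ndufv2 had their lowest ratios there too, 0.85 and 0.67.

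Complex II, also the succinate dehydrogenase of the citric acid cycle, was measured by all of its 4 genes. Each was below 0 in both genotypes, with medians of -0.40 in Atf4+/+ and -0.32 in Atf4-/-. Sdhd, a membrane anchor subunit, had ratios of 1.37 and 1.05 in untreated Atf4+/+, 1.17 and 1.24 in untreated Atf4-/-, 0.95 and 0.44 in treated Atf4+/+ and 0.90 and 0.95 in treated Atf4-/-. No treated array reached the lowest untreated one, and 1 treated array was far below the others. The mean was 1.21 ± 0.134 untreated and 0.81 ± 0.248 treated (SD, n = 4), a log2 change of -0.57 ± 0.24 (SE; adjusted p = 0.457, limma).

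Sdhb, the iron-sulfur subunit, had ratios of 1.10 and 0.83 in untreated Atf4+/+, 1.19 and 1.17 in untreated Atf4-/-, 1.02 and 0.62 in treated Atf4+/+ and 0.73 and 0.98 in treated Atf4-/-. Its groups overlapped in Atf4+/+ and stood apart in Atf4-/-. Over both genotypes it changed by -0.33 ± 0.21 (SE; adjusted p = 0.581, limma). Sdha, the flavoprotein, had 0.50 and Sdhc, the other anchor, 0.45 in treated Atf4+/+ replicate 2, and their remaining ratios lay between 0.86 and 1.26. Without that array the median of complex II in Atf4+/+ was 0.05, with 1 of 4 genes below 0.

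Complex III passes electrons from ubiquinol to cytochrome c. In Atf4+/+ 7 of 7 genes were below 0 (median -0.31) and in Atf4-/- 6 of 7 (median -0.14). Uqcrh, the hinge subunit beside cytochrome c1, had ratios of 1.14 and 1.12 in untreated Atf4+/+, 1.19 and 1.04 in untreated Atf4-/-, 0.85 and 0.38 in treated Atf4+/+ and 0.87 and 0.96 in treated Atf4-/-. The 4 untreated arrays were close together and all treated ones lower. Among the probe sets used, it had the lowest ratio of any member in treated Atf4+/+ replicate 2. The log2 change was -0.87 ± 0.34 in Atf4+/+ and -0.26 ± 0.34 in Atf4-/- (SE; adjusted p = 0.526 and 0.872, limma).

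Uqcr11, a small subunit, had a like order, with ratios of 1.22 and 1.07 in untreated Atf4+/+, 1.17 and 1.06 in untreated Atf4-/-, 0.94 and 0.47 in treated Atf4+/+ and 0.82 and 0.89 in treated Atf4-/-. Its change over both genotypes was -0.52 ± 0.22 (SE; adjusted p = 0.458, limma). The large core proteins differed from each other in treated Atf4+/+ replicate 2, where Uqcrc1 had 0.73 and Uqcrc2 1.13. Uqcrc2 changed by 0.05 ± 0.20 over both genotypes and Uqcrc1 by -0.20 ± 0.18, and neither passed the test.

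Complex IV, cytochrome c oxidase, was the most mixed, with 11 of 15 genes below 0 in Atf4+/+ (median -0.23) and 10 in Atf4-/- (median -0.28). Cox4i1, the common form of subunit 4, had ratios of 1.02 and 1.65 in untreated Atf4+/+, 1.13 and 1.05 in untreated Atf4-/-, 0.75 and 0.98 in treated Atf4+/+ and 0.49 and 0.77 in treated Atf4-/-. Its lowest value was in a treated Atf4-/- array, and treated Atf4+/+ replicate 2 was the highest of the treated ones. The mean was 1.21 ± 0.295 untreated and 0.747 ± 0.201 treated (SD, n = 4), a change of -0.64 ± 0.23 (SE; adjusted p = 0.39, limma). Among the probe sets used, it was the only one with a lower value and an unadjusted p under 0.05 over both genotypes, against 5.15% of all probe sets. Ndufc2 was the only one with a higher value, against 6.16%. A second probe set of Ndufa3 also had a lower value with such a p, at -0.50, and all its treated arrays lay below all untreated ones. A second probe set of Cox4i1 gave -0.24, with treated and untreated arrays that overlapped.

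Cox6b1, which lies between the paired units of the enzyme, had ratios of 0.98 and 1.14 in untreated Atf4+/+, 1.20 and 1.38 in untreated Atf4-/-, 0.66 and 1.02 in treated Atf4+/+ and 0.92 and 0.96 in treated Atf4-/-. It changed by -0.37 ± 0.18 over both genotypes (SE; adjusted p = 0.504, limma), and its groups stood apart in Atf4-/- and overlapped in Atf4+/+. Cox5b changed by -0.42 ± 0.24 in Atf4+/+ and 0.01 ± 0.24 in Atf4-/-, with its lowest ratio, 0.66, in treated Atf4+/+ replicate 2. Cox5a had ratios from 0.23 to 2.14, and its 2 probe sets disagreed in direction in Atf4+/+.

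Complex IV also has forms of its small subunits that are typical of heart and skeletal muscle (Cox6a2, Cox7a1, Cox8b) or testis (Cox6b2, Cox8c) beside the common forms. Cox7a1 had ratios of 0.80 and 0.51 in untreated Atf4+/+, 1.20 and 0.64 in untreated Atf4-/-, 1.33 and 1.36 in treated Atf4+/+ and 0.57 and 0.49 in treated Atf4-/-. The treated Atf4+/+ arrays were the highest and the treated Atf4-/- arrays among the lowest. The log2 change was 0.96 ± 0.34 in Atf4+/+ and -0.64 ± 0.34 in Atf4-/- (SE; adjusted p = 0.506 and 0.715, limma), and the difference was -1.61 ± 0.48 (adjusted p = 0.901). Cox7a2, its common counterpart, had ratios between 0.95 and 1.23 except for 0.69 in treated Atf4+/+ replicate 2.

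The other pairs gave no common direction. Cox6a2 reached 2.96 in treated Atf4+/+ replicate 2, and lay between 0.62 and 1.34 elsewhere, while its common form Cox6a1 was lowest there at 0.74. The striated muscle markers, whose median there was 1.27, are given above, and whether muscle RNA had a part was not tested. Cox8a, the common form of subunit 8, had ratios of 1.27 and 0.77 in untreated Atf4+/+, 1.24 and 2.31 in untreated Atf4-/-, 0.63 and 2.03 in treated Atf4+/+ and 0.65 and 0.39 in treated Atf4-/-. It changed by -1.57 ± 0.58 in Atf4-/- (SE; adjusted p = 0.641, limma), and in Atf4+/+ its treated arrays lay on either side of the untreated ones. Cox6b2 and Cox8c changed by 0.25 and -0.02 in Atf4+/+ and by -0.62 and -0.28 in Atf4-/-.

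**Figure D3:**
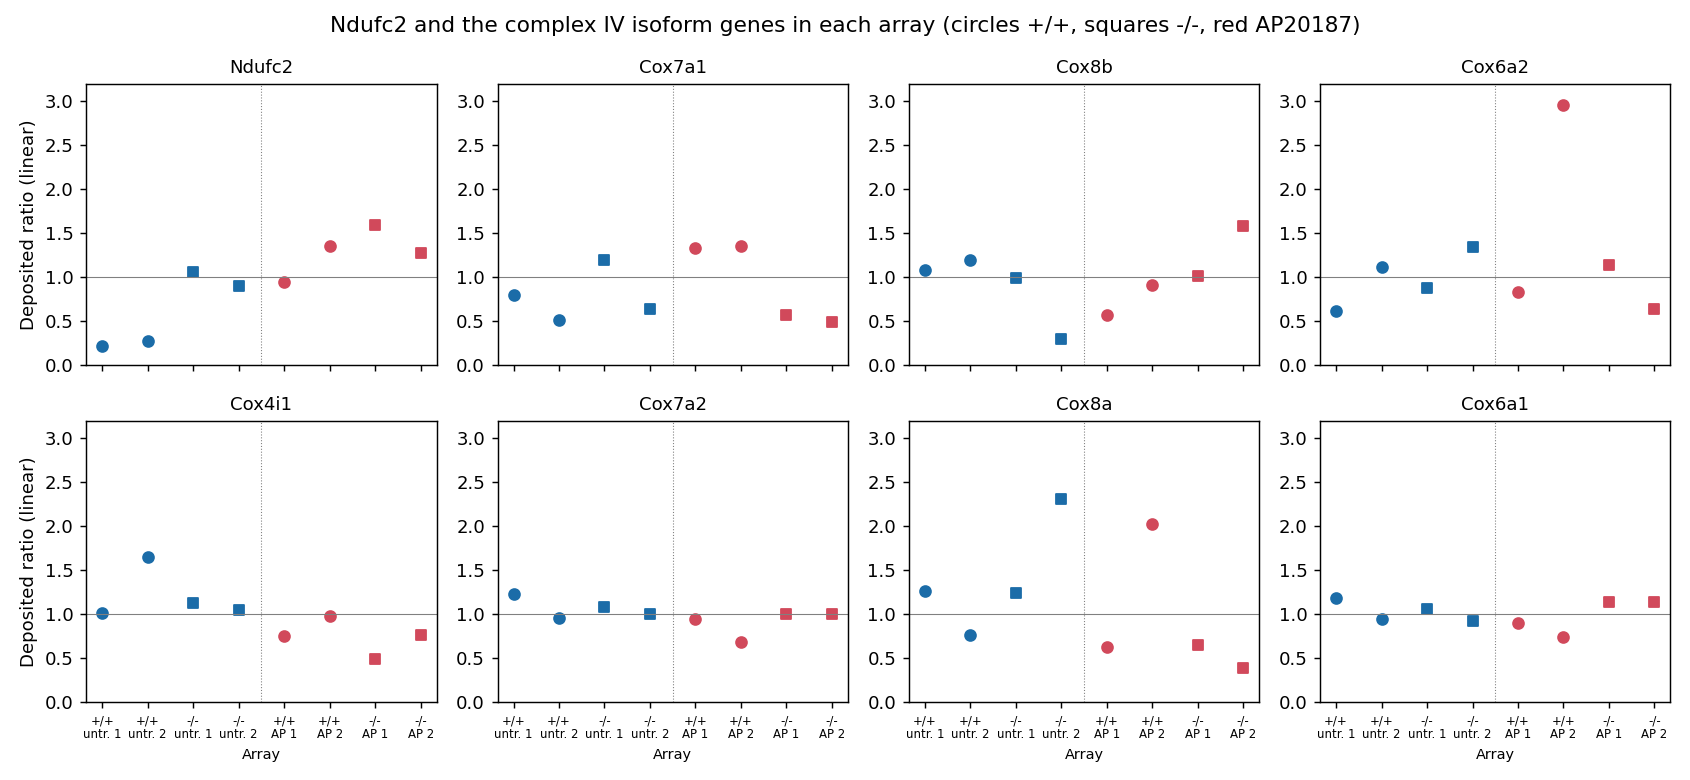
Deposited ratios (linear axis) in each of the 8 arrays for Ndufc2 and for 7 complex IV genes, circles Atf4+/+, squares Atf4-/-, blue untreated and red AP20187. Ndufc2 is at 0.22 and 0.27 in untreated Atf4+/+ and at 0.90 or above elsewhere, and Cox7a1 is highest, at 1.33 and 1.36, in treated Atf4+/+.

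Complex V makes ATP. In Atf4+/+ 12 of 14 genes were below 0 (median -0.42, and -0.20 without treated replicate 2), and in Atf4-/- 10 (median -0.14). Atp5e, the epsilon subunit of the central stalk, had ratios of 1.02 and 1.15 in untreated Atf4+/+, 1.23 and 0.98 in untreated Atf4-/-, 0.84 and 0.58 in treated Atf4+/+ and 0.97 and 1.03 in treated Atf4-/-. The groups stood apart in Atf4+/+ and overlapped in Atf4-/-, with log2 changes of -0.57 ± 0.25 and -0.12 ± 0.25 (SE; adjusted p = 0.57 and 0.922, limma). Atp5o, which joins the head to the peripheral stalk, had ratios of 1.22 and 1.16, 1.13 and 0.97, 1.03 and 0.64, and 0.89 and 0.87 in the same group order, a change of -0.36 ± 0.18 over both genotypes (adjusted p = 0.521).

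Atp5k, a small subunit of the membrane part, had ratios of 1.68 and 1.11 in untreated Atf4+/+, 1.09 and 1.0 in untreated Atf4-/-, 0.99 and 0.50 in treated Atf4+/+ and 0.94 and 1.0 in treated Atf4-/-. Of complex V it had the smallest unadjusted p for the difference of effects, 0.76 ± 0.49 (SE; adjusted p = 0.944, limma). Atp5j, of the peripheral stalk, was 0.56 in treated Atf4+/+ replicate 2 and between 0.92 and 1.29 elsewhere. The head and rotor subunits Atp5a1 and Atp5c1 changed by -0.12 ± 0.24 and -0.22 ± 0.27 in Atf4+/+, and by -0.16 ± 0.24 and 0.03 ± 0.27 in Atf4-/-. The membrane ring genes Atp5g1 and Atp5g2 had 1.12 and 1.48 in treated Atf4+/+ replicate 2. A probe set of Atp5d gave ratios from 0.37 to 1.72, while 3 of its other 4 had their lowest ratio, from 0.51 to 0.70, in that array.

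The 12 core subunits of complexes I, II, III and V were below 0 in Atf4+/+ without exception (median -0.32), and 9 were in Atf4-/- (median -0.08). The 57 accessory subunits had medians of -0.35 and -0.19. Without treated Atf4+/+ replicate 2 the core median in Atf4+/+ was -0.06, with 7 of 12 below 0, and the accessory median -0.17. The 7 assembly factors had medians of 0.02 and 0.03. Ndufaf4, which helps to build complex I, changed by 0.17 ± 0.31 and 0.42 ± 0.31, and Cox18, which helps to insert a mitochondrially encoded subunit, by 0.20 ± 0.24 and 0.23 ± 0.24 (SE). Cox17, the copper chaperone, and Ndufaf1 had their lowest ratios, 0.81 and 0.77, in treated Atf4+/+ replicate 2.

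The difference between the genotypes in their response to AP20187 was above 0 for 55 genes and below 0 for 21, with a median of 0.25 against 0.04 over all probe sets, 46.6% of which were below 0. No gene passed the adjusted test (0.0% of all probe sets; smallest adjusted p 0.901, limma). Unadjusted p was under 0.05 for 2 genes with a value below 0, Ndufc2 and Cox7a1, against 2.73% of all probe sets, and for none above 0, against 2.73%. A second probe set of Ndufaf1, not the one used, gave -2.81, also with an unadjusted p under 0.05. Without treated Atf4+/+ replicate 2 the median was 0.01, with 37 genes below 0, and without replicate 1 it was 0.44. Changes were below 0 in both genotypes for 49 genes and above 0 in both for 5.

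**Figure D4:**
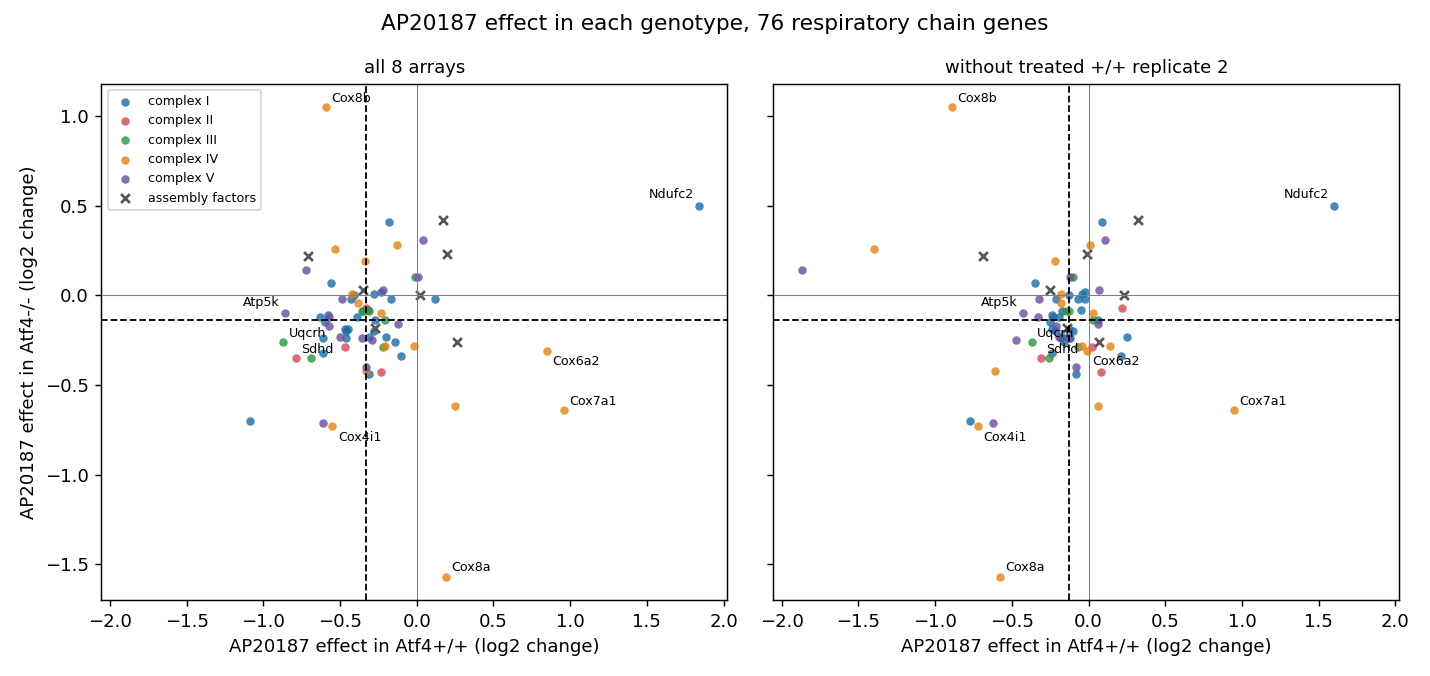
AP20187 effect in Atf4+/+ (x axis) and in Atf4-/- (y axis) as log2 changes for the 76 genes, with all 8 arrays (left) and without treated Atf4+/+ replicate 2 (right), dashed lines at the medians. The median in Atf4+/+ moves from -0.33 to -0.13, and that in Atf4-/- is -0.14 in both.

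Without AP20187, Atf4-/- against Atf4+/+ liver gave a median of 0.00, with 39 genes above 0 and 37 below, against 50.6% of all probe sets below 0. No gene passed the adjusted test (0.0% of all probe sets; smallest adjusted p 0.273, limma). Ndufc2 and Ndufa1 had higher values with an unadjusted p under 0.05, against 2.76% of all probe sets, and no gene had a lower one, against 2.56%. The second probe set of Ndufaf1 gave 1.85, also with an unadjusted p under 0.05. The genotypes did not overlap for 11 genes lower in Atf4-/-, against 16.4% of all probe sets, and for 10 higher, against 15.5%. The 11 became 35 (46.1%) without untreated Atf4+/+ replicate 2, against 35.2% of all probe sets, 26 (34.2%) without untreated Atf4-/- replicate 1, against 34.1%, and 18 (23.7%) without replicate 2 of that group, against 31.0%.

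With AP20187, 63 genes were above 0 and 13 below in Atf4-/- against Atf4+/+, with a median of 0.25 against 0.04 over all probe sets, 45.2% of which were below 0. No gene passed the adjusted test (0.0% of all probe sets; smallest adjusted p 0.777, limma), and Cox7a1 alone had a lower value with an unadjusted p under 0.05, at -1.20 ± 0.34 (SE), against 2.78%. No gene had a higher one, against 2.53%. The groups did not overlap for 19 genes higher in Atf4-/-, against 19.2% of all probe sets, and for 2 lower, against 15.3%. Without treated Atf4+/+ replicate 2 the median was 0.00, with 37 genes below 0 and 21 genes (27.6%) lower without overlap, against 31.2% of all probe sets. Without any other array of these groups that number was 5 to 11 genes, against 27.3% to 34.3%.

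Related mitochondrial lists had median ratios closer to 1 in that array. The median ratio in treated Atf4+/+ replicate 2 was 0.78 for 15 citric acid cycle genes (lowest there for 9) and 0.85 for 61 mitochondrial ribosome genes (29). It was 0.805 for 10 genes of a carrier list (4), 1.07 for 7 assembly and import genes (2) and 1.0 for 13 regulators of mitochondrial biogenesis (1). Besides electron carriers, the carrier list holds Slc25a4 and Slc25a5, which exchange ADP and ATP, and Cyc1, a complex III subunit whose symbol lies outside the member rule. Over both genotypes no gene of these lists passed the adjusted test. With an unadjusted p under 0.05, reached by 5.15% of all probe sets with lower and 6.16% with higher values, 5 mitochondrial ribosome genes had lower and 2 higher values. The citric acid cycle list had 0 lower and 1 higher (Cs, citrate synthase). Cs was at 1.57 in treated Atf4+/+ replicate 2, its highest array, unlike the median of its list. The carrier list had 1 of each (Slc25a4 lower and Slc25a5 higher), the import list 0 lower and 1 higher (Tomm40), and the regulators 1 of each (Esrra and Pprc1). Probe sets of Slc25a5 disagreed over both genotypes, with 1.02 for the one used and -0.26 and 0.06 for the others. The medians of the 5 lists in that comparison were -0.13 for the citric acid cycle, -0.08 for the mitochondrial ribosome, -0.15 for the carriers, 0.13 for assembly and import and 0.01 for the regulators.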

How the data were processed

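Total RNA of mouse liver was labelled as cRNA, per the labels' protocols, and hybridised to 8 Affymetrix MG-U74Av2 arrays, 2 in each of 4 groups. The authors deposited a table of linear ratios. The summarisation, the scaling between arrays and the divisor are not given in the sources used here. Signal over background is therefore unknown, and precision is limited by how few arrays there were. Groups came from source names and descriptions, and where these differ (untreated Atf4-/- replicate 1) from the source name. It is not stated whether replicate arrays are of separate mice, and p-values measure the spread between these samples, which may be technical.

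After 66 control probe sets were left out, log2(ratio + 0.1) of 12422 probe sets was fitted as 4 group means over all 8 arrays in limma 3.58.1 (R 4.3.3, statmod 1.5.0), using eBayes with neither trend nor robust fitting (residual degrees of freedom 4, prior 2.37). Benjamini-Hochberg adjustment covered all 12422, with a threshold of 0.05, and the fit was tested on simulated data. Fold changes on this scale understate those of low ratios. Each gene was represented by 1 probe set, preferring a row median of 0.99 or more (met for 74 of 76 genes), next an unsuffixed name and last the first identifier. Gene names came from the platform annotation. Python 3.11.15, pandas 2.3.3 and matplotlib 3.10.9 were used for counts and figures.

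The members and lists were chosen with earlier results of these data known. Genes named with all 8 values were, in each complex, the 2 with the smallest p for AP20187 over both genotypes and the 1 for the difference between genotypes. Core subunits, isoform pairs and assembly factors were named by fold. Cox8a, Sdha, Sdhc and Atp5j are shown in more detail than this rule asks, after their values were seen. Alternatives were other pseudocounts, scalings, filters, probe set choices, moderation, array weights, groupings of the doubted arrays, a looser threshold, and leaving out assembly factors or each array. Counts without overlap, with an unadjusted p under 0.05 or below 0 were added as alternatives after seeing the data.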

Additional observations from a re-analysis of the deposited data

Results flagged for a closer look

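For 3 complex IV genes each treated array lay on one side of both untreated arrays in Atf4+/+ and on the other side in Atf4-/-. Of all probe sets, 21.3% lay lower and 16.7% higher without overlap in Atf4+/+, and 22.3% and 20.1% in Atf4-/-. The share on opposite sides in the genotypes was not counted, so these 3 genes cannot be called more than that share. The AP20187 effect in Atf4-/- minus that in Atf4+/+ was -1.61 on the log2 scale for Cox7a1, 1.64 for Cox8b and 0.53 for Cox6a1. None of these differences passed the test (adjusted p = 0.901, 0.931 and 0.944, limma). Cox8b, a muscle form of subunit 8, had ratios of 1.08 and 1.20 in untreated Atf4+/+, 0.99 and 0.30 in untreated Atf4-/-, 0.57 and 0.91 in treated Atf4+/+ and 1.01 and 1.58 in treated Atf4-/-. Its second probe set changed by 0.06 in Atf4+/+ and -0.25 in Atf4-/-, in directions opposite to these. Cox6a1, the common form of subunit 6a, had 1.19 and 0.95, 1.06 and 0.92, 0.90 and 0.74, and 1.14 and 1.14 in the same group order.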

How the results depend on the processing

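No respiratory chain gene passed the adjusted test in any of the 6 comparisons under any alternative at a threshold of 0.05, nor at 0.10 with the other choices as reported. Over all fits, those without an array included, the smallest adjusted p was 0.0937 for AP20187 in Atf4+/+ and 0.0959 over both genotypes, and between 0.234 and 0.471 in the other comparisons. The median change depended on the treated Atf4+/+ arrays. Leaving out arrays in turn, it ran from -0.53 to -0.13 for AP20187 in Atf4+/+, from 0.01 to 0.44 for the difference between genotypes and from 0.00 to 0.44 for Atf4-/- against Atf4+/+ with AP20187, the ends being the fits without replicate 1 and without replicate 2 of the treated Atf4+/+ group. For AP20187 in Atf4-/- it ran from -0.21 to -0.05, over both genotypes from -0.33 to -0.15, and for untreated genotypes from -0.10 to 0.10. Other alternatives moved the medians by less than the SD of the arrays' member medians within groups, 0.158 on the log2 scale. They gave -0.43 to -0.23 in Atf4+/+ and -0.28 to -0.16 over both genotypes. Array weights could not move the medians, because they were equal for the arrays of each group. Other moderation and a looser threshold alter the test and not the changes, so they could not move them either. Genes with lower values and an unadjusted p under 0.05 numbered 0 to 22 in Atf4+/+ and 0 to 17 over both genotypes when arrays were left out, the highest counts both without treated Atf4+/+ replicate 1 (8.05% and 7.87% of all probe sets in that fit), and 0 to 7 and 0 to 4 under other alternatives. No paired analysis was possible because the labels give no replicate numbers.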

Other observations

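Among regulators and partners of the respiratory chain, Pprc1, a coactivator related to PGC-1alpha, had ratios of 0.45 and 0.56 in untreated Atf4+/+, 0.79 and 0.94 in untreated Atf4-/-, 1.35 and 1.93 in treated Atf4+/+ and 1.4 and 1.06 in treated Atf4-/-. All treated arrays lay above all untreated ones, and the change over both genotypes was 0.98 ± 0.19 (SE; adjusted p = 0.215, limma). Esrra, which encodes an estrogen-related receptor, lay the other way, with 1.39 and 1.26, 1.17 and 1.05, 0.93 and 0.73, and 0.95 and 0.94 in the same group order, a change of -0.42 ± 0.15 (adjusted p = 0.40). Tomm40, the import channel of the outer membrane, changed by 0.56 ± 0.16 (adjusted p = 0.324), with all treated arrays above all untreated ones. None of the 3 passed the adjusted test, and they are named as the genes of their lists with an unadjusted p under 0.05 in that comparison.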
